A study of Mus musculus with 42 samples.

Results

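The genes described here encode the cell adhesion and guidance proteins named integrin, laminin, cadherin, semaphorin and plexin, read in 21 mouse mammary tumours. They were chosen by symbol in the platform annotation: every Itga and Itgb gene, every laminin chain (Lama, Lamb, Lamc), every Cdh gene except Cdh11, every Sema gene and every plexin (Plxn). Of 79 symbols that matched, 29 had values on both arrays of at least 15 tumours and were measured, out of 7766 genes measured in the series by the same standard, and 50 were left out. The 29 were 9 integrin subunits, 6 laminin chains, 3 cadherins, 4 semaphorins and 4 plexins, with 3 genes whose symbols begin with Itgb but whose products are integrin binding proteins (Itgb1bp1, Itgb1bp2 and Itgb3bp).

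All tumours came from a single model, mice of the strain FVB/N-Tg(WapMyc)212Bri, in which a c-Myc transgene is driven by the Wap promoter, which belongs to a milk protein gene of the mammary epithelium. Passage through living mice had sorted the growths into 4 lines: a glandular line, a solid or comedo line that gave no lung metastases, a solid or comedo line that did, and a spindloid, that is mesenchymal, line. The labels give a number to each tumour but not its line, its age or the animals it came from, so the 21 tumours are compared as single tumours and no line is compared with another. Each tumour RNA was hybridised on 2 arrays with the dyes swapped, against a universal mouse reference RNA. The p-values of the tests between tumours (limma) therefore measure the error between 2 hybridisations of 1 RNA and not the spread between animals. The permutation p-values of the correlations instead take each tumour as an independent unit. Tumours of 1 line may be related, and the labels do not give the lines, so those p-values may be too small.

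Levels are log2 ratios of tumour to reference after each array was centred on the median of the 4226 probes measured on all 42 arrays. The overall sign was chosen so that Myc was positive, because the labels do not settle which dye ratio runs which way, and every sign and every "higher" or "lower" below would turn together if that choice were wrong. Between 8600 and 21328 of 22800 probes were measured on an array, and the number of arrays limits the precision. Tumour 656 stands apart: before turning for the dye swap its 2 arrays correlated at 0.0743 over probes, while the other 20 pairs were all below 0, and the median gap between its 2 arrays over the measured adhesion and guidance genes was 1.63 on the log2 scale. It was not alone in poor agreement. After turning, the 2 arrays correlated over genes at 0.2 in tumour 660, 0.23 in 670, 0.259 in 656 and 0.267 in 647. As a check of the labelled tissue, the epithelial marker Epcam was lowest in tumour 646, at -2.89, and highest in 656, at 3.71, and the mesenchymal marker Vim was lowest in 656, at -4.64, and highest in 647, at 0.98. The 5 tumours highest in Vim were 647, 646, 649, 644 and 673, the fifth of them at 0.42 and the next tumour, 639, at -3.33. Epcam was 0.13 in tumour 644 and below 0 in the other 4 of these, so this epithelial marker was lowest where Vim was highest. The mean of 13 measured epithelial markers was also lowest in these 5 tumours, at most 0.727, with tumour 670 next at 0.795. Keratins of that list had other orders. Krt8 was highest in tumour 649, at 2.98, and Krt8 and Krt18 were lowest in 656, at 0.946 and -2.78.

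Integrins are receptors built of an α and a β subunit that hold a cell to the extracellular matrix and pass signals inward through focal adhesions. Laminins are trimers of an α, a β and a γ chain that form the sheet of the basement membrane, to which mammary epithelium is anchored, in part through the integrin α6β4 of hemidesmosomes. Cadherins join cells to each other through catenins, and semaphorins are secreted or membrane ligands, most of which signal through plexins, with neuropilins as co-receptors. Loss of epithelial cadherin contacts together with a change of integrins and matrix is a textbook feature of epithelial-mesenchymal transition.

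Promoters are shown for 5 genes that were highest in the same tumours in the results that follow, so that their upstream sequences can be set side by side. The windows are the 250 bases before the first annotated start (Itga3 has 2), read 5′ to 3′ on the strand of the gene, from RefSeq on GRCm38.p6, and capitals mark any match on either strand to CACGTG (the E-box bound by Myc), CAGGTG (the E-box bound by Snail factors), TGANTCA (AP-1), GGGCGG (Sp1 box, CCGCCC on the other strand) or GGAATG (a TEAD box). Positions are chr15:103366792-103367041, minus strand, for Itga5, chr11:95076715-95076964, minus strand, for Itga3, chr12:31265043-31265292, plus strand, for Lamb1, chr8:128685404-128685653, plus strand, for Itgb1, and chr9:57939862-57940111, plus strand, for Sema7a.
Itga5: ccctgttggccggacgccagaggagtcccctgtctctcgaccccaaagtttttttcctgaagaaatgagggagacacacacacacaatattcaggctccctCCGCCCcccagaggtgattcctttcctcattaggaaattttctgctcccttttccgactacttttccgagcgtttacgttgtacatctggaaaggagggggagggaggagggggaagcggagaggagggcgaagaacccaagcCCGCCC
Itga3: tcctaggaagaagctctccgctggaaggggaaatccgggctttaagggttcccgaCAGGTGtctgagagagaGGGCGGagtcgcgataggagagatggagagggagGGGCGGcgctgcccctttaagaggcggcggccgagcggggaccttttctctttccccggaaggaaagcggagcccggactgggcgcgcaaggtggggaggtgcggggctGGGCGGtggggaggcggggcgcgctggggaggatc
Lamb1: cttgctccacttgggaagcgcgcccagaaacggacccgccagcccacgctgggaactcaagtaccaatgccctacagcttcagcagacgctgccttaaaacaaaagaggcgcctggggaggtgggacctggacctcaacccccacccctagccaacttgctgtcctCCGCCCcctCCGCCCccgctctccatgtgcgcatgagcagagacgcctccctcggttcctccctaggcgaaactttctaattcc
Itgb1: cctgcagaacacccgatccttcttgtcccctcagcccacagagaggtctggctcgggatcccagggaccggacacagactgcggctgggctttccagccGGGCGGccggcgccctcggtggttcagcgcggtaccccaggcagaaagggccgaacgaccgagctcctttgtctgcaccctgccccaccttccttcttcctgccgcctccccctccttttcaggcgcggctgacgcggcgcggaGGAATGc
Sema7a: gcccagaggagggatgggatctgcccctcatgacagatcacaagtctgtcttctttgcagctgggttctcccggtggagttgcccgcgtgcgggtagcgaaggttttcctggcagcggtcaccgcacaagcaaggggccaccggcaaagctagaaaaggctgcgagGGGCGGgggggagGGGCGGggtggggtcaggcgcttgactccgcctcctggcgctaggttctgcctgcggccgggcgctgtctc
Each of these windows held a Sp1 box, the letters GGGCGG, and Itga3 also held CAGGTG and Itgb1 GGAATG. These are 5 of the 9 genes named below with the same 5 highest tumours. Of the others, the window of Itgav held none of these motifs, and that of Lama5 held GGGCGG and CAGGTG. The Sp1 box was thus not in every such gene. Over the 19 of 29 genes with a promoter in the RefSeq table, 12 held GGGCGG, against 32.9% of 27025 promoters of the same length. CAGGTG was in 2, Itga3 and Lama5, against 17.1% of promoters, and GGAATG was in 2, Itgb1 and Cdh10, against 12.6%. CACGTG and TGANTCA were in 0 of the 19, against 6.05% and 6.87% of promoters. A match is a description of letters and not a bound site, and no match shown overlaps another.

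Across the 21 tumours, 13 of the 29 genes (44.8%) differed by limma's moderated F test at an adjusted p under 0.05, beside 24.2% of all 7766 genes. The integrin subunits held 6 of these (Itga5, Itga3, Itgb4, Itgb1, Itgav and Itgal, of 9 measured), the laminins 3 (Lamb1, Lamc1 and Lama5, of 6), the semaphorins 2 (Sema7a and Sema3c, of 4) and the plexins 2 (Plxna1 and Plxnb2, of 4). Among 3 cadherins 0 passed, with 0 at an unadjusted p under 0.05, and among the 3 integrin binding proteins 0 passed, likewise with 0 at an unadjusted p under 0.05. Tumour means of the 29 genes had a median standard deviation of 1.04 on the log2 scale, against 0.72 over all genes tested. In tumour tissue a higher level may be more RNA in each cell or more cells of a type, and the 2 cannot be told apart. With the 5 tumours highest in Vim removed, which was decided once the data had been seen, 1 of the 29 genes (Itgb4) and 9.3% of all genes passed among the other 16 tumours.

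**Figure D1:**
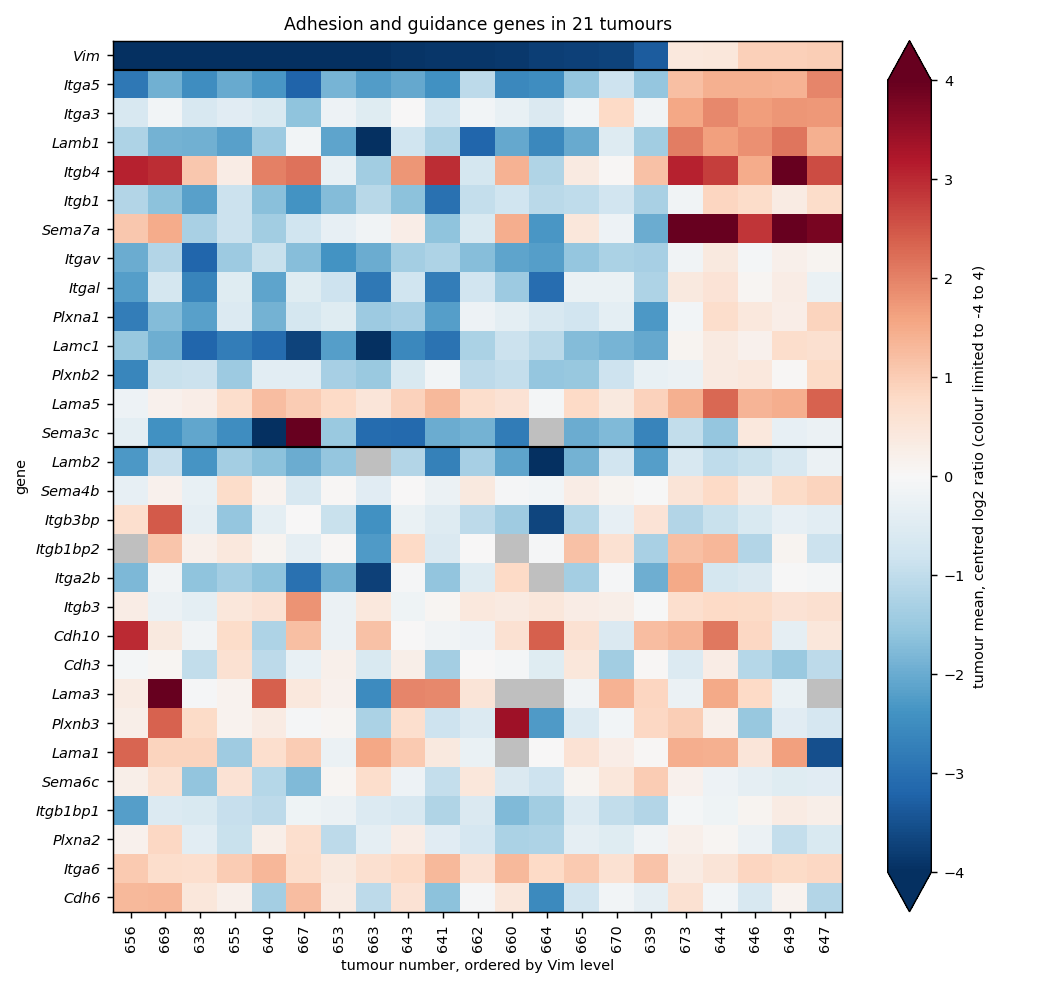
Heat map of tumour means (centred log2 ratio, colour limited to -4 to 4) for Vim, the 13 genes that passed the test and the 16 that did not, in rows from the smallest adjusted p down, with the 21 tumours in columns ordered by Vim and grey where a tumour had no value. The 5 columns at the right, tumours 673, 644, 646, 649 and 647, are the red end of most upper rows, while Itgb4 has red columns at both ends and Itga6 is pale red in all 21.

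**Figure D2:**
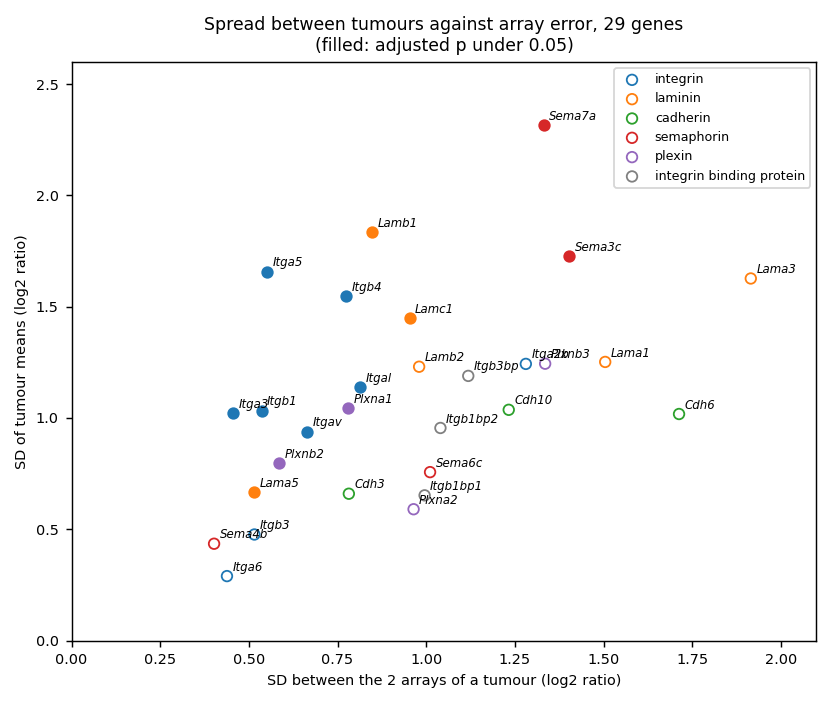
Standard deviation of tumour means against the standard deviation between the 2 arrays of a tumour (both log2 ratio) for the 29 genes, coloured by family, with filled points for adjusted p under 0.05. Itga5 (1.66 against 0.55) lies far above its array error, whereas Lama3 (1.63 against 1.92) has a wide spread with a wider error.

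Itga5, the α chain of the main fibronectin receptor, separated the tumours most firmly. Its level was -3.21 in tumour 667 at the low end, -1.93 at the median and 1.95 in tumour 647 at the high end, a 35.8-fold range with a standard error of 0.40 for a tumour mean (limma, adjusted p = 1.53e-07). The high tumours were 647, 644, 646, 649 and 673, between 1.22 and 1.95, and the next, 670, was at -0.83. None of the 32 arrays of the other tumours came above -0.09, and none of the 10 arrays of these 5 came under 1.18, so the arrays did not overlap. Without the 5 tumours the adjusted p was 0.289, the highest of 13 alternatives, the lowest being 1.52e-08.

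Itga3, the α chain of a laminin receptor, had the same high tumours. It ran from -1.62 in tumour 667 through a median of -0.13 to 1.94 in tumour 644 (limma, adjusted p = 2.81e-05, standard error 0.34). The 5 tumours lay between 1.55 and 1.94 and tumour 670 followed at 0.79. A single array of the other tumours, at 1.84, lay above the lowest array of the 5, at 1.40.

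Itgb1, the β chain shared by most matrix-binding integrins, ran from -3.0 in tumour 641 through -1.08 to 0.85 in tumour 644 (limma, adjusted p = 1.6e-04, standard error 0.39). Tumours 644, 646, 647 and 649 were the 4 above 0, between 0.34 and 0.85, tumour 673 came next at -0.16, and 670 followed at -0.76. The step from the fifth tumour to the next was 0.60, smaller than the 2.05 of Itga5. Tumours 641 and 667, at -3.0 and -2.39, were the 2 lowest.

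Itgav, the α chain of vitronectin receptors, ran from -3.18 in tumour 638 through -1.36 to 0.38 in tumour 644 (limma, adjusted p = 0.00608, standard error 0.47). The same 5 tumours were again highest, between -0.15 and 0.38, ahead of tumour 640 at -0.90. Of its 3 probes, the pair with values in 20 and 21 tumours correlated at 0.78 across tumours, while the third, with both arrays in 8 tumours, correlated at -0.23 with the first. The third probe had 36% of its values on ratios of small whole numbers, a mark of dim spots. Read alone, the 2 fuller probes passed at adjusted p values of 0.00103 and 7.63e-05, as rows of the fit on 8215 probes with limma.

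Itgal, the α chain of the leukocyte integrin LFA-1, is found on T cells and myeloid cells. It ran from -3.04 in tumour 664 through -0.76 to 0.55 in tumour 644 (limma, adjusted p = 0.0075, standard error 0.56). Its 4 highest tumours, 644, 673, 649 and 646, were among those highest in Vim, but the fifth was tumour 665 at -0.26, just ahead of 647 at -0.27. Among markers of myeloid cells 12 of 14 measured genes differed between tumours, beside 24.2% of all genes. Their list score ran from -1.67 in tumour 663 to 2.43 in tumour 649. The 5 tumours highest in Vim were also the 5 highest in this score, the fifth of them at 2.095 and the next tumour, 641, at 0.957. Of markers of T, NK and B cells 0 of 5 passed, too few genes to set against that share. The score of that list ran from -1.31 in tumour 641 to 0.30 in tumour 667. Itgal was set against the myeloid score only over the 16 tumours left without the 5 highest in Vim. There r was 0.17 and rho 0.156 (permutation p = 0.531, adjusted 0.76 for r). That test does not cover the step between those 5 tumours and the others. Itgal was not set against the score of T, NK and B cells. The part of myeloid or T cells in the level of Itgal over all tumours was not tested.

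Itgb4, the β chain of the hemidesmosome integrin, followed an order of its own. It ran from -1.40 in tumour 663 through 1.5 to 4.01 in tumour 649 (limma, adjusted p = 7.39e-05, standard error 0.54), and 17 of 21 tumours were above 0. After 649 came tumours 673 at 3.08, 656 at 3.07, 641 at 2.95 and 669 at 2.94. Of these, 656, 641 and 669 were low in Vim, at -4.64, -3.88 and -4.44, and among the 5 tumours highest in Vim the level of Itgb4 ran from 1.5 in 646 to 4.01. The 4 lowest tumours, 663, 664, 662 and 653, had at least 1 array each in the second slide run, as did tumour 656 with its 3.07. With the slide run as a block the adjusted p was 0.00341 (limma), and over 12 alternatives it lay between 6.06e-05 and 0.00546, the last without the 5 tumours highest in Vim.

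Itga6, the α partner of Itgb4, was the flattest gene of the 29. Its level was above 0 in 21 of 21 tumours, from 0.32 in tumour 673 through 0.78 to 1.34 in tumour 640. The standard deviation of its tumour means was 0.29, at percentile 3.31 of all genes tested, against 0.44 between arrays (limma, adjusted p = 0.817). Neighbouring tumours in its order cannot be separated at a standard error of 0.33.

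**Figure D3:**
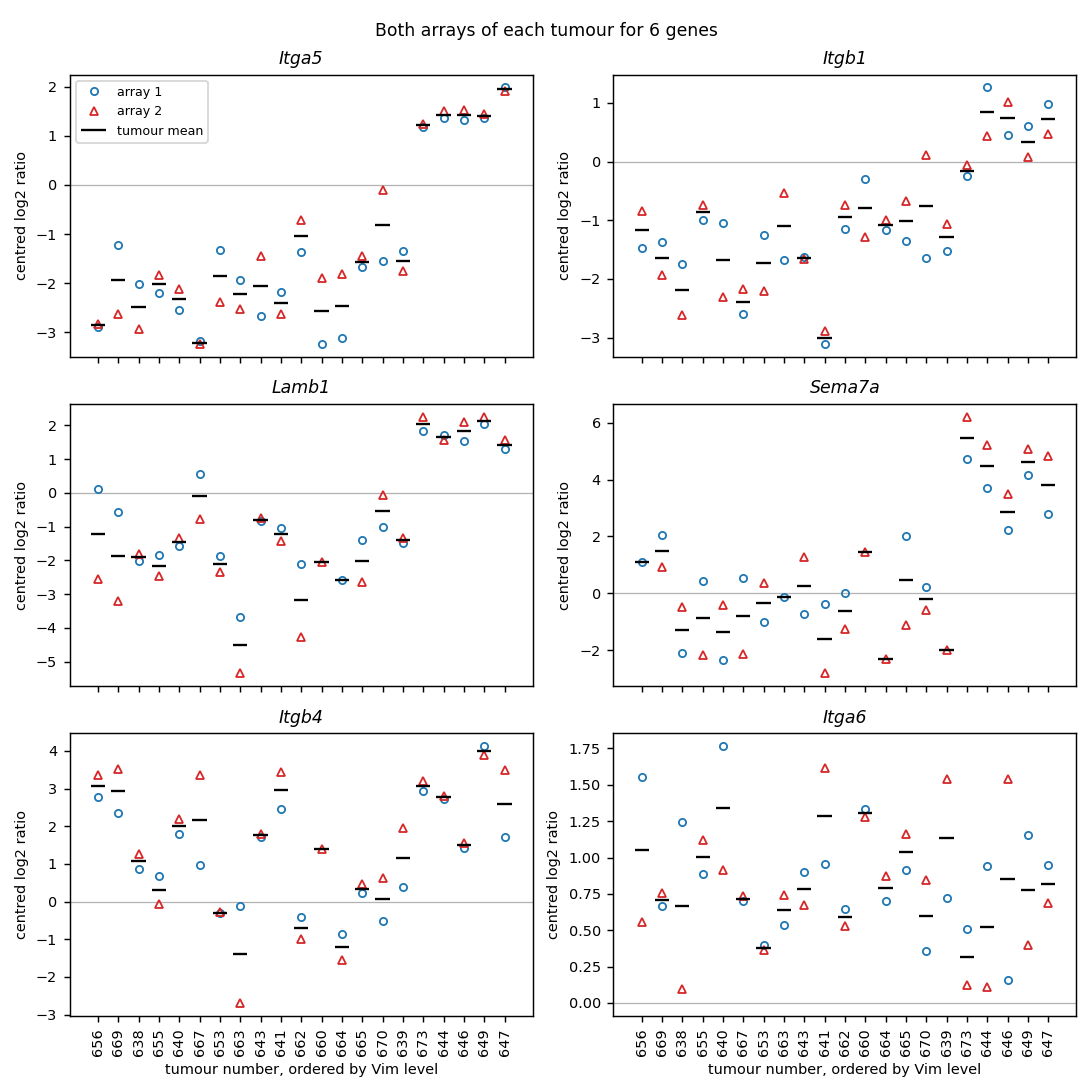
Values of both arrays (circles and triangles) and the tumour mean (bar), as centred log2 ratio, for Itga5, Itgb1, Lamb1, Sema7a, Itgb4 and Itga6 in the 21 tumours ordered by Vim. In Itga5, Lamb1 and Sema7a the 10 arrays of the 5 tumours at the right lie above every other array, in Itgb1 1 other array reaches 0.11, above the lowest of the 10 at -0.24, Itgb4 is high at both ends and the arrays of Itga6 stay between 0.09 and 1.77.

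Itgb3 and Itga2b, the chains of the platelet fibrinogen receptor, did not pass. Itgb3 ran from -0.38 in tumour 638 through 0.42 to 1.81 in tumour 667 (limma, adjusted p = 0.267). The value of tumour 667 was the mean of 0.49 and 3.13 on its 2 arrays, and without the first of these arrays the adjusted p became 0.00345, within 0.00345 to 0.357 over the 42 settings that leave out an array. Itga2b was -3.74 in tumour 663, -1.03 at the median and 1.5 in tumour 673 (adjusted p = 0.26), and of 7 platelet markers 0 were measured, so no platelet signal was at hand beside it.

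Lamb1, the β1 chain of laminin, had the second widest spread of the 29 genes. It ran from -4.51 in tumour 663 through -1.40 to 2.14 in tumour 649, a 100.3-fold range (limma, adjusted p = 3.65e-05, standard error 0.58). Tumours 649, 673, 646, 644 and 647 lay between 1.42 and 2.14, the next, 667, at -0.11, and no array of the other tumours was above 0.55, while the lowest of the 10 arrays of the 5 was at 1.29. The low end was tumour 663, at -3.67 and -5.35 on its 2 arrays, with 662 at -3.18 and 664 at -2.59.

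Lamc1, the γ1 chain that most laminins contain, had both arrays in only 15 tumours, the fewest allowed. It ran from -4.22 in tumour 663, a single array, through -1.85 to 0.71 in tumour 649 (limma, adjusted p = 0.0104, standard error 0.64). The 5 tumours highest in Vim were again the 5 highest, from 0.11 to 0.71, and 660 came next at -0.86. The highest of the 26 arrays of other tumours was -0.35 and the lowest of the 10 arrays of these 5 was -0.24.

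Lama5, the α5 chain of epithelial and vascular basement membranes, covered a smaller range. It ran from -0.21 in tumour 656 through 0.81 to 2.35 in tumour 647, and was above 0 in 19 of 21 tumours (limma, adjusted p = 0.0216, standard error 0.37). Tumours 647 and 644, at 2.35 and 2.30, stood clear, and of the next 3 (649, 673 and 646, from 1.36 to 1.45) the last was 0.07 above tumour 641. It lost its call without an array of tumour 644 (adjusted p = 0.0589) or of tumour 647 (0.053), within 0.00386 to 0.0589 over the 42 settings that leave out an array.

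The other 3 laminin chains did not pass. Lamb2, the β2 chain, was below 0 in 20 of 20 tumours with a value, lowest in 664, at -6.05, and highest in 647, at -0.23 (limma, adjusted p = 0.121), and the value of tumour 664 came from 1 array. Lama3, the α chain of laminin-332 in hemidesmosomes, was lowest in tumour 663, at -2.52, and highest in 669, at 5.59 on a single array (adjusted p = 0.532). Lama1 was lowest in tumour 647, at -3.51 on a single array, and highest in 656, at 2.33 (adjusted p = 0.585). For Lama3 and Lama1 no single probe had enough values by itself, 41% and 36.5% of values lay on ratios of small whole numbers, and their probes correlated between -0.30 and 0.13 across tumours.

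The measured cadherins were Cdh3, the P-cadherin of basal epithelium, Cdh6, kidney cadherin, and Cdh10, a neural cadherin. Cdh3 ran from -1.5 in tumour 649 through -0.31 to 0.61 in tumour 655 (limma, adjusted p = 0.38). Cdh10 was lowest in tumour 640, at -1.23, and highest in 656, at 2.99 (adjusted p = 0.302). Cdh6 was lowest in tumour 664, at -2.56, and highest in 669, at 1.33 (adjusted p = 0.819). In each the spread of tumour means was below the spread between arrays, at 0.66 against 0.78 for Cdh3, 1.04 against 1.23 for Cdh10 and 1.02 against 1.71 for Cdh6.

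Cdh1, the E-cadherin of epithelial junctions, and Cdh2, the N-cadherin of mesenchymal cells, were among the 50 genes left out. Cdh1 had both arrays in 7 tumours, and in the 16 with any value it ran from -0.83 through 3.57 to 7.35. Cdh2 had both arrays in 9 tumours and ran from -5.86 through -1.07 to 1.34. The nearest genes outside the limit, with 14 tumours, were Itgb2, Plxnd1, Sema4d and Sema6a, at medians of -1.70, -0.70, -0.13 and 1.01, and the nearest inside, with 15, were Lama3 and Lamc1, at medians of 0.46 and -1.85.

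Sema7a, a membrane-anchored semaphorin that binds β1 integrins and plexin C1, had the widest spread of tumour means, with a standard deviation of 2.31. It ran from -2.32 in tumour 664 through -0.13 to 5.47 in tumour 673, a 222-fold range (limma, adjusted p = 0.00132, standard error 0.89). The 5 highest were 673 at 5.47, 649 at 4.61, 644 at 4.46, 647 at 3.81 and 646 at 2.86, ahead of tumour 669 at 1.49. The lowest of their 10 arrays was 2.22 and the highest of the 27 other arrays was 2.04. Its 2 probes correlated at 0.78 over 17 tumours, and the probe with enough values passed alone (limma, adjusted p = 3.87e-04 over 8215 probes).

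Sema3c, a secreted semaphorin that signals through neuropilins and plexins, was set apart by 1 tumour. It ran from -4.01 in tumour 640 through -1.94 to 4.09 in tumour 667 (limma, adjusted p = 0.03, standard error 0.94), and tumour 646, next at 0.42, was the only other tumour above 0 of 20. Tumour 667 was high on both arrays, at 5.29 and 2.88, but each rests on a single spot, of 1 probe on the first array and of the other probe on the second, and neither probe had enough values to be tested alone. Leaving out either array of tumour 667 ended the call (limma, adjusted p = 0.182 and 0.0539), as did an array of tumour 646 (0.0519), within 0.00809 to 0.182 over the 42 settings that leave out an array. It also lost its call with the slide run as a block (0.064) and on the deposited scale (0.11).

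Sema4b and Sema6c, both transmembrane semaphorins, did not pass. Sema4b was lowest in tumour 667, at -0.65, and highest in 647, at 0.91 (limma, adjusted p = 0.139). Sema6c was lowest in the same tumour, at -1.76, and highest in 639, at 1.03 (adjusted p = 0.676). The lowest tumour for both was the one highest in Sema3c.

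Plxna1, a co-receptor for secreted semaphorins, ran from -2.77 in tumour 656 through -0.65 to 0.91 in tumour 647 (limma, adjusted p = 0.00937, standard error 0.54). The 5 tumours highest in Vim were its 5 highest, but the fifth, 673 at -0.11, was 0.08 from the next, 662. Its 2 probes correlated at 0.45, and the probe with 21 tumours passed alone at adjusted p = 1.01e-05 while the probe with 16 did not, at 0.0681 (limma, 8215 probes).

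Plxnb2, a receptor of class 4 semaphorins, ran from -2.60 in tumour 656 through -0.84 to 0.77 in tumour 647 (limma, adjusted p = 0.0107, standard error 0.42). The value of tumour 656 was the mean of -4.10 and -1.09, and without that tumour the adjusted p was 6.27e-04, within 6.27e-04 to 0.335 over 13 alternatives. It lost its call with the slide run as a block (0.118) and under quantile normalization (0.0886). Plxna2 and Plxnb3 did not pass (limma, adjusted p = 0.805 and 0.546), with levels from -1.26 to 0.84 and from -2.27 to 3.40.

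The integrin binding proteins are cytoplasmic or nuclear and are no receptors. Itgb1bp1, which binds the tail of β1 integrin, was lowest in tumour 656, at -2.21, and highest in 649, at 0.34 (limma, adjusted p = 0.72). Itgb1bp2, a muscle protein that binds the same tail, ran from -2.28 to 1.33 (adjusted p = 0.244). Itgb3bp, a kinetochore protein first named for binding β3 integrin, was lowest in tumour 664, at -3.66, and highest in 669, at 2.46 (adjusted p = 0.154), where its 2 arrays were 4.84 and 0.08.

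The order of tumours recurred from gene to gene. Of 23 genes with a value in all 21 tumours, 9 had as their 5 highest tumours the 5 highest in Vim: Itga5, Itga3, Itgb1, Itgav, Lamb1, Lamc1, Lama5, Sema7a and Plxna1. Over all genes with a value in every tumour the same held for 460 of 6674 (6.89%). The reverse, the 5 highest in Vim being the 5 lowest, held for 0 of the 23 and for 134 genes (2.01%). These are descriptions of order, and several of the 9 steps were small, from 0.07 for Lama5 and 0.08 for Plxna1 to 2.05 for Itga5. The same 5 tumours were also the 5 highest in the macrophage and myeloid score, at 2.095 or more against at most 0.957 in the others. Of these 5 tumours 3 lay wholly in slide run 3 and 1 in slide run 1, while tumour 646 had arrays in runs 1 and 3. They did not all share a run, but no array of theirs was in slide run 2. Of the 5 tumours wholly in slide run 2, 0 were among them. The group and the slide run thus overlap in part, and the part of slide run in this order was not tested.

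The genes of the series whose tumour means were most like those of the leading integrins and laminin were looked up among 7757 genes. For Itga5 they were Lrp1 (r = 0.977), Fscn1 (0.972) and Itga3 (0.970) over 21 tumours, and for Itga3 they were Itga5 (0.970), Loxl3 (0.968 over 19) and Thbs2 (0.963 over 20). Itgb1 was most like Fn1, fibronectin itself (0.949), then Tmem30a (0.924) and Bace1 (0.922). Lamb1 was most like Phc2 (0.951), Vps29 (0.941) and Scin (0.931). Itgb4 had looser likenesses, Lima1 (0.889), Zbtb20 (0.882) and Fnbp1l (0.879), and shared none of them with the other 4. All these values of r were taken over every tumour with a value, including the tumours highest in Vim. How far they rest on the step between those tumours and the others was not tested.

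Subunits that assemble into one protein were next set against each other over tumours, in 15 pairs and 16 tests. Where a mixture model split the first gene into clusters, the correlation was taken within a cluster of at least 6 tumours. The pair Itgav and Itgb1, of the integrin αvβ1, had r = 0.711 and Spearman's rho = 0.518 over 21 tumours (permutation p = 3e-04, adjusted 0.0048, and for rho 0.0175, adjusted 0.0899). Without the 2 tumours farthest from the median of Itgav r was 0.622, and within the third slide run it was 0.869 over 8 tumours (exact permutation p = 0.00655). Without the 5 tumours highest in Vim r was 0.017 over 16 tumours, so the relation rests on those tumours.

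Lamb2 and Lamc1, chains of 1 laminin trimer, had r = 0.657 and rho = 0.641 over 19 tumours (permutation p = 0.0027, adjusted 0.0216, and for rho 0.00389, adjusted 0.0622), r = 0.556 without 2 tumours and 0.795 over the 8 tumours of the third run. Lama5 and Lamb1 had r = 0.605 and rho = 0.577 over 19 tumours (permutation p = 0.00595, adjusted 0.0317, and for rho 0.0109, adjusted 0.0875), r = 0.690 without 2 tumours and 0.708 in the third run. Without the 5 tumours highest in Vim these were 0.177 over 14 tumours and 0.245 over 16. Without replicate 2 of each tumour they were 0.270 and 0.227, with adjusted p values of 0.499 and 0.537, and Itgav and Itgb1 also lost its call there, at r = 0.569 and 0.068. Lama5 and Lamb1 was lost too with the slide run removed (r = 0.502, adjusted 0.0664) and under quantile normalization (r = 0.504, adjusted 0.0633). The first and second runs held 4 and 5 whole tumours, too few for a value. By Spearman's rho none of the 16 tests passed after adjustment.

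Itga5 and Itgb1, the fibronectin receptor, had r = 0.468 and rho = 0.391 within the 16 tumours of the lower cluster of Itga5 (permutation p = 0.0675, adjusted 0.135, and for rho 0.135, adjusted 0.24). This pair passed with the slide run removed (r = 0.717, adjusted 0.00843), under quantile normalization (0.683, adjusted 0.0185) and without replicate 1 (0.663, adjusted 0.0201), but was -0.014 without replicate 2 (adjusted 0.976). Itga3 and Itgb1 had r = 0.529 over 15 tumours (permutation p = 0.048, adjusted 0.128) and 0.903 over the other 6 (permutation p = 0.0139, adjusted 0.0556). With the slide run removed these were 0.779 (adjusted 0.00712) and 0.916 (adjusted 0.0267), and under quantile normalization the first was 0.639 (adjusted 0.0269), within 0.00712 to 0.337 over its 7 settings. In the third run, which mixes both clusters, the pairs had r = 0.951 and 0.943 over 8 tumours.

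The hemidesmosome pair Itga6 and Itgb4 had r = 0.163 and rho = 0.147 over 21 tumours (permutation p = 0.479, adjusted 0.547, and for rho 0.524, adjusted 0.615), with r = 0.154 without 2 tumours and 0.170 in the third run. On the deposited scale without centring it was 0.540, with an adjusted p of 0.0314, within 0.0314 to 0.951 over 7 settings. It was 0.502 without the 5 tumours highest in Vim (adjusted 0.337) and 0.436 and -0.071 without replicate 2 or replicate 1 of each tumour (adjusted 0.172 and 0.951), so its size and sign moved with several choices. Lamb1 and Lamc1 had r = 0.024 over the 16 tumours of the lower cluster of Lamb1 (permutation p = 0.929, adjusted 0.929). With the slide run removed it was 0.407 (adjusted 0.191), and over the 8 tumours of the third run, 3 of which are among the 5 highest in Vim, it was 0.810 (exact permutation p = 0.0228). The ligand Sema7a and Itgb1 had r = 0.319 over the 16 tumours of the lower cluster of Sema7a (permutation p = 0.229, adjusted 0.358). With the slide run removed it was 0.579 and passed (adjusted 0.0489, within 0.0489 to 0.976 over 7 settings), and in the third run it was 0.864 (exact permutation p = 0.00918).

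**Figure D4:**
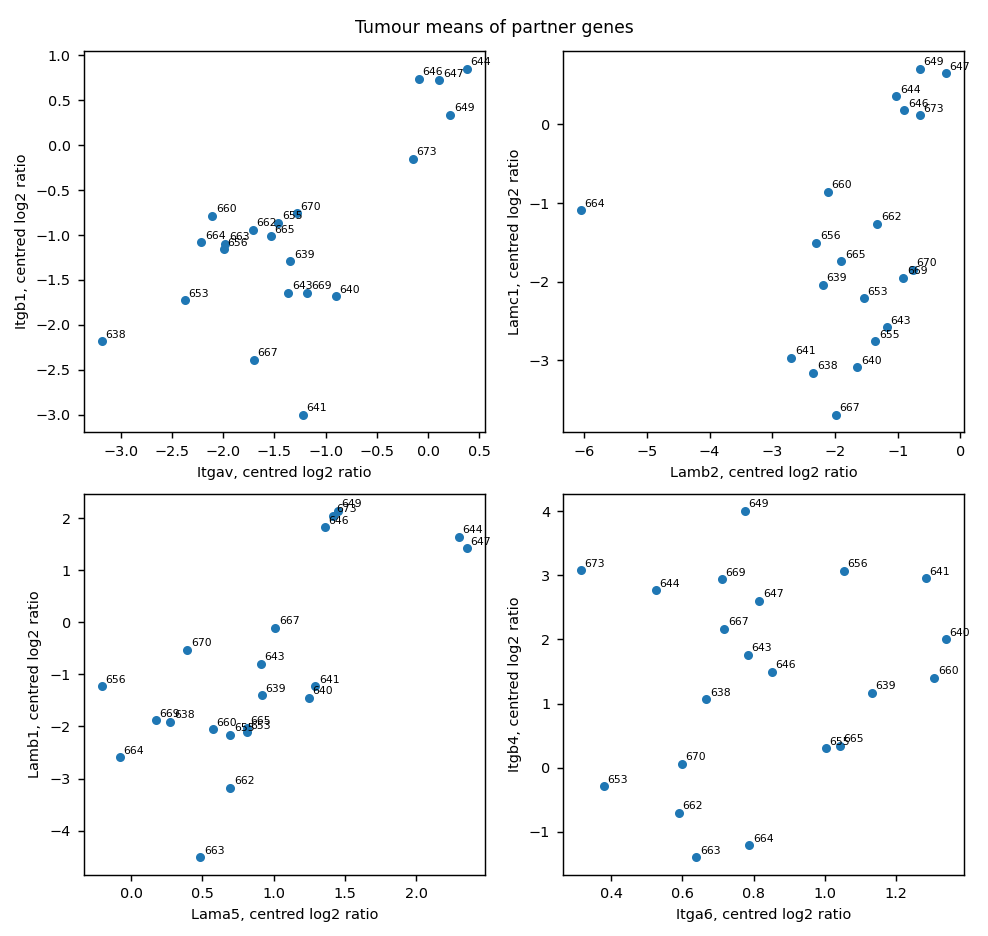
Tumour means (centred log2 ratio) of 4 pairs of partner genes, each point a tumour with its number. In the pairs Itgav and Itgb1 (r = 0.711), Lamb2 and Lamc1 and Lama5 and Lamb1 the tumours 644, 646, 647, 649 and 673 lie at the top of the vertical axis, apart from the rest, while Itga6 and Itgb4 (r = 0.163) show no such corner.

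Other genes of the same pathways were read from the same fit, in which 24.2% of all 7766 genes passed. Among ligands of integrins other than laminins 8 of 9 measured genes passed (88.9%). They included Fn1, fibronectin, from -3.63 in tumour 667 to 1.69 in 647 (limma, adjusted p = 7.48e-09), Tnc, tenascin C, from -2.86 in 656 to 3.66 in 644 (1.14e-06), and Adam9 from -3.91 in 656 to 0.61 in 649 (1.2e-05). Mfge8, a milk fat globule protein that binds αv integrins, ran from -0.77 in 669 to 2.15 in 638 (1.33e-04). Among adaptors and kinases of focal adhesions 11 of 20 passed (55%), with Actn1 from -1.55 in 656 to 1.33 in 649 (1.12e-06), Vcl, vinculin, from -2.87 in 641 to 0.99 in 647 (6.12e-06), Zyx, zyxin, from -2.99 in 667 to 0.75 in 646 (1.31e-05) and Ilk, integrin-linked kinase, from -1.56 in 656 to 1.10 in 647 (7.29e-05).

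Of the list of basement membrane partners of the laminins, 7 of 14 measured genes passed (50%), beside the 24.2% of all genes. The 7, and the score of the list, include Lcat (limma, adjusted p = 0.00751), a plasma lipid enzyme that is not a basement membrane gene. Fbln2, fibulin 2, ran from -6.16 in tumour 663 to 2.00 in 647 (limma, adjusted p = 3.88e-06) and Col4a1, a chain of collagen IV, from -0.97 in 669 to 1.97 in 644 (3.44e-05). Col18a1 ran from -3.49 in 660 to 4.19 in 649 (5.77e-04) and Col7a1, the anchoring fibril collagen, from -5.84 in 663 to 4.16 in 644 (0.00102). Tumour 663, lowest here for Fbln2 and Col7a1, was also lowest for Lamb1 and, on a single array, for Lamc1. Its list score of -2.23 was the lowest of the 21. It was also lowest in the mesenchymal (-3.05), basal (-1.78), macrophage (-1.67), Schwann cell (-0.971) and focal adhesion (-1.16) scores, but not in those of the other lists. Its second array measured 12011 probes, and the median gap between its 2 arrays over the measured adhesion and guidance genes was 1.27. The part of array quality in these low values was not tested.

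Of catenins and other cadherin partners 4 of 11 passed (36.4%), beside the 24.2% of all genes. Ctnnb1, β-catenin, ran from -1.79 in 641 to 1.51 in 655 (limma, adjusted p = 1.95e-05), and Ctnna1, α-catenin, from -1.07 in 667 to 1.98 in 646 (2.36e-04). Ctnnd2 ran from -3.56 in 664 to 2.68 in 673 (7.72e-05) and Adam10, a sheddase of cadherins, from -1.45 in 641 to 1.03 in 647 (0.0166). Among partners of semaphorins and plexins 6 of 13 passed (46.2%), with Nrp1, neuropilin 1, from -3.11 in 665 to 2.64 in 647 (0.0149), Fyn, a kinase of plexin signalling, from -3.60 in 664 to 2.00 in 663 (4.67e-04), Dpysl3 from -3.84 in 664 to 2.48 in 673 (7.43e-04) and Farp1 from -0.84 in 662 to 0.69 in 647 (0.00232).

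Each of the 29 genes was also set against the scores of 4 marker lists (the mean level of the list's genes in a tumour) over tumours, in 116 tests, of which 22 passed by r, 18 positive and 4 negative. Other genes of the series were not set against these lists. No share over all genes can therefore stand beside these counts or those of each list, and they are not a result particular to the 29 genes. The 4 negative ones were with epithelial markers (10 of 13 measured passed the test between tumours, beside 24.2% of all genes, score from -0.75 in tumour 647 to 2.59 in 667), within the 17 tumours of the upper cluster of that score. They were Itgb1 (r = -0.775, rho = -0.767, permutation p = 1.1e-04, adjusted 0.00603, and -0.677 without 2 tumours), Itga3 (-0.653, adjusted 0.0302), Lamc1 (-0.653, adjusted 0.0329) and Itga5 (-0.606, adjusted 0.0415), with -0.347, -0.450 and -0.341 without 2 tumours. All 4 lost their calls on the deposited scale, where Itgb1 was -0.545 (adjusted 0.0509), Lamc1 -0.431, Itga5 -0.197 and Itga3 -0.134, and without replicate 2 of each tumour, where the smallest adjusted p was 0.0626. Under quantile normalization Itga5 and Itga3 lost theirs (adjusted 0.0986 and 0.0974). Without replicate 1 Itgb1 alone of the 4 passed (-0.765, adjusted 0.00986). By rho Itga3 and Itga5 did not pass (-0.444 and -0.456, adjusted 0.232 and 0.216). This upper cluster holds tumour 644, of the 5 highest in Vim, at its lowest score of 0.727. Without those 5 tumours r over 16 tumours was -0.735 for Itgb1, -0.569 for Itga3, -0.556 for Lamc1 and -0.506 for Itga5. Their adjusted p values were 0.0505, 0.129, 0.146 and 0.179. With mesenchymal markers (9 of 13 passed, score from -3.05 in tumour 663 to 0.80 in 644), 3 passed within the 16 tumours of the lower cluster, Itga3 (r = 0.647, rho = 0.771, permutation p = 0.00371, adjusted 0.0329), Itga5 (0.644, adjusted 0.0411) and Lamc1 (0.644, adjusted 0.0429). None of the 3 passed without replicate 1 (Itga3 0.450, Itga5 0.586, Lamc1 0.498, adjusted 0.163, 0.0596 and 0.188) or without replicate 2 (0.330, 0.343 and 0.446, adjusted 0.568, 0.518 and 0.474), and Lamc1 did not on the deposited scale (0.536, adjusted 0.0868). This lower cluster holds none of the 5 tumours highest in Vim. When those tumours are removed from all 116 tests these 3 values of r stay, but their adjusted p values become 0.1, 0.101 and 0.101, and 0 of the 116 tests pass.

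With macrophage and myeloid markers 3 genes passed within 16 tumours or fewer: Lama3 (r = 0.802, rho = 0.727, permutation p = 7.9e-04, adjusted 0.0139, 14 tumours), Plxnb2 (0.674, adjusted 0.0329) and Itgb3bp (0.648, adjusted 0.0411). With the slide run removed these were 0.439, 0.432 and 0.370, with adjusted p values of 0.274, 0.233 and 0.353, so none of the 3 passed, and none did without replicate 2 (0.316, 0.494 and 0.296). With endothelial markers 12 passed over 21 or 20 tumours, from Itga2b (r = 0.572, adjusted 0.0429) to Itga5 (r = 0.719, rho = 0.705, permutation p = 9e-05, adjusted 0.00603, and 0.596 without 2 tumours), and they included Itga3, Itgav, Lamb1, Lama5, Sema7a and Itgb4. By rho Sema7a, Itgb4 and Itga2b did not pass (adjusted 0.165, 0.0656 and 0.232). This score was not split into clusters, so its tests include the 5 tumours highest in Vim. Those of the other 3 lists leave out all or most of them, so the counts of the lists are not like measures. Of the endothelial markers themselves 0 of 6 measured genes differed between tumours, beside 24.2% of all genes (limma, smallest adjusted p = 0.0705, for Emcn). Their score ran from -0.94 in tumour 664 to 1.45 in 673, the next highest being 1.12 in 644. Without the 5 tumours highest in Vim these 12 values lay between -0.017 (Sema7a) and 0.631 (Lamb2). Without replicate 2 of each tumour they lay between 0.039 and 0.742, and of the 12 only Sema7a and Itgav passed. The part of cell mixture in the levels of these genes was not tested.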

How the data were processed

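RNA of 21 tumours was read on 42 two-colour oligonucleotide arrays, 2 per tumour with dyes swapped, per the labels. The deposited values are log2 ratios of the dyes, a scale read from the values. The sources used here do not give the image processing, background correction or normalization. The top value of 16.61, the log2 of 100000 (2.14% of values), was set to missing. Arrays were turned for the dye swap by the sign of their loading on the first eigenvector of the differences between the arrays of a tumour, and centred on 4226 probes measured on all 42 arrays. Probes were averaged per gene, named from the platform annotation, in which 16874 probes had 1 symbol, 134 several and 5792 none.

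Tumours were compared with limma 3.58.1 in R 4.3.3 (moderated F test, Benjamini-Hochberg over 7766 genes, threshold 0.05). Correlations over tumours used 100000 permutations, or exact enumeration under 10 tumours, and clusters from mclust 6.1.1. Marker and pathway scores are means of tumour means. Genes named were those past the threshold, the 10 with the widest spread and members of passing pairs, up to 4 genes of each pathway list by p, and the 3 genes most like each of the 5 with the smallest p; the remaining measured genes were added afterwards. The genes, lists and pairs were chosen with earlier results of these data known. Slide run (9, 13 and 20 arrays) was read off the numbering of the titles, and what it marks is not stated there. Alternatives were other centring, quantile normalization, top values kept, other filters, 1 probe per gene, slide run, dye and leaving out arrays or tumours.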

Additional observations from a re-analysis of the deposited data

How the results depend on the processing

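Against 1881 genes that differed between tumours in all, quantile normalization gave 1042, dye orientation as a covariate 3101, and leaving out the 5 tumours highest in Vim, chosen after seeing the data, 722. Leaving out 1 array at a time gave 1640 to 2322 genes and 12 to 14 of the 29 adhesion and guidance genes, the lost ones being Lama5 (arrays of tumours 644 and 647) and Sema3c (tumours 646 and 667). Of those 29, 13 passed in the main setting. With top values kept 7 passed, without Lamb1, Sema7a, Itgav, Itgal, Lamc1 and Sema3c, and with values required in all 21 tumours 7 of the 12 still tested. Without the 5 tumours highest in Vim 1 passed. On the deposited scale 9 passed (Plxna1, Lamc1, Lama5 and Sema3c lost), with quantile normalization 10 (Itgal, Plxnb2 and Lama5 lost) and with the slide run as a block 10 (Plxnb2, Lama5 and Sema3c lost). Itgb4 kept its call in all 12 of its alternatives.

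Of the partner pairs 3 passed in the main setting, 6 on the deposited scale, 6 with the slide run removed and 0 without the 5 tumours highest in Vim. Without replicate 1 or replicate 2 of every tumour the range was 0 to 4. Of the tests against marker lists 22 passed in the main setting, 36 on the deposited scale (though the 4 with epithelial markers were lost there), 0 without the 5 tumours, and 2 to 19 without a replicate. Sema7a and the endothelial score went from r = 0.661 to -0.017, that is to no correlation, over the 16 tumours left without the 5. Apart from the loss of those tumours, the causes were not tested. No paired analysis was possible because the labels give no replicate numbers and the 2 arrays of a tumour are a dye swap of 1 RNA. The 2 arrays per tumour and dim spots limit the precision, and blank cells left 50 of 79 genes unmeasured.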

Other observations

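Genes of the same families with too few values to be tested gave a partial picture. Lama4, the laminin α4 chain of vessels and mesenchyme, had both arrays in 10 tumours and a median of 2.39 over the 21 with any value, from -4.29 to 6.51. Sema3a, a secreted semaphorin, had the lowest median of the 50, at -3.59 over 12 tumours, with both arrays in 7. Itgam and Itgax, integrin α chains of myeloid cells, had both arrays in 6 and 5 tumours, at medians of 1.64 and 1.10. Cdh5, the cadherin of endothelium, had both arrays in 5 tumours and a median of 1.24. No test was made of these genes, which were chosen after their values were seen.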
